A study of Homo sapiens with 6 samples.

Results

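The genes examined here are the 78 mitochondrial ribosomal protein genes, chosen as every gene of the count table whose symbol is MRPL or MRPS followed by a number and, where present, a letter A to C, out of 36517 genes in all. Of these, 49 are MRPL genes and 29 are MRPS genes. All 78 lay at the locus and on the strand of a protein-coding gene of the same symbol in GENCODE 29 (GRCh38), and all 78 passed the filter on low counts. The samples came from MDA-MB-453, an established human line of breast cancer of the luminal androgen receptor type, transduced with a lentiviral hairpin. In the shtRF group (n = 3) the hairpin was directed against tRF-1-Ser, a small RNA released from the 3′ trailer of a precursor of serine tRNA, and in the control group (n = 3) it was the control hairpin shNC. Cells of both groups thus carried a lentivirus and were collected at day 3 for stranded mRNA sequencing. Each group represents 1 cell line and 1 hairpin. The paper reports a qPCR check of the knockdown in its cell lines. In these libraries tRF-1-Ser itself is too short to be measured, so for these samples the group names rest on the labels.

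Mitochondria make a small set of respiratory chain subunits from their own genome on a ribosome of their own, the mitoribosome. Its ribosomal RNAs are encoded by mitochondrial DNA, whereas all of its proteins are encoded in the nucleus, translated in the cytosol and imported. The small subunit (mostly MRPS proteins) decodes the mRNA, and the large subunit (mostly MRPL proteins) forms the peptide bond and passes the chain to the inner membrane. Many of these proteins have bacterial relatives, and the others are found in mitochondria only. The comparison asked which of the 78 transcripts differed between shtRF and control cells, and how the subunits compared.

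Libraries held 63541413 to 78917459 counts, and the 78 genes together took 0.313% to 0.331% of them. The lowest count of any of the 78 genes in any library was 124. Levels are given as CPM (counts scaled to a library total of 1000000), adjusted with normalisation factors of 0.961 to 1.03, and differences as log2 fold change of shtRF minus control from the quasi-likelihood test of edgeR over 19628 genes. Of the luminal markers, 10 of 10 were tested, and their summed CPM was 4830 to 4912 in control and 5931 to 6397 in shtRF libraries. Of these, 4 were higher in shtRF, 3 were lower and 3 were not called. Summed CPM of the 4 basal markers was 2.72 to 3.52 in control and 1.77 to 2.68 in shtRF libraries, of the 5 fibroblast markers 29.6 to 35.4 and 20.6 to 21.3, of the 4 leukocyte markers 4.15 to 5.14 and 5.61 to 8.06, and of the 3 endothelial markers 0.0615 to 0.175 and 0.114 to 0.242. The fibroblast sum was nearly all COL1A1, while DCN had at most 2 counts in any library. The leukocyte sum was nearly all CD68, while PTPRC and CD3E had at most 5 counts. Exons of other genes, among them RP11-186B7.4 and AC113189.5, covered 85.8% of the exonic bases of CD68, so its counts may not all be its own. The part of these differences in the results below was not tested.

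Fewer mitochondrial ribosomal protein genes were called higher than lower, and the changes were small. At an adjusted p under 0.05, 9 of the 78 (11.5%) were higher in shtRF, against a background of 20.6% of all tested genes, and 21 (26.9%) were lower, against a background of 18.9%. The other 48 (61.5%) did not pass the test. Among the 12760 genes that had at least as many counts in every library as the lowest of the 78, the corresponding backgrounds were 27.3% and 22.9%. The median log2 fold change of the 78 genes was -0.05, and that of all tested genes was -0.0025. None of the 78 was called with a change of more than 2-fold, against 5.77% of all tested genes. The shtRF libraries all lay above the control libraries for 8 genes and all below them for 21, against backgrounds of 24.9% and 23.8% of all tested genes. Together this was 37.2% of the 78, against 48.7%. With upper quartile scaling in place of TMM the split was 5 higher and 25 lower, and without control replicate 1 it was 5 higher and 22 lower.

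**Figure D1:**
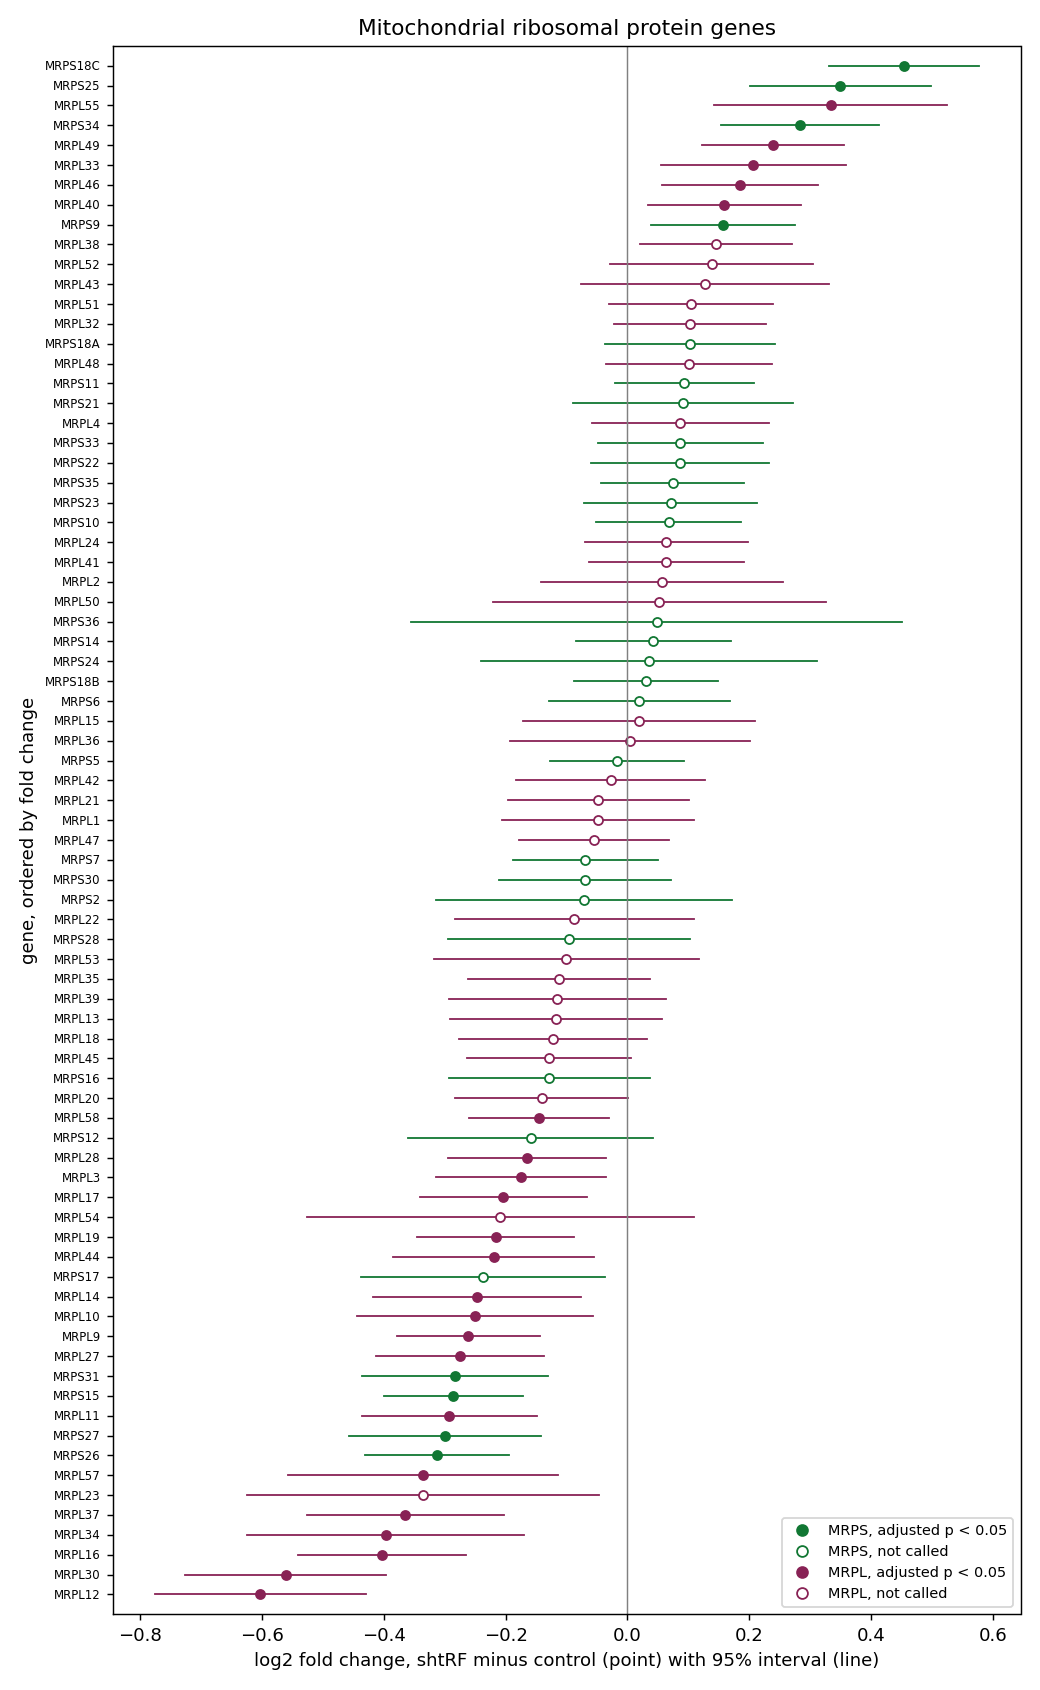
Log2 fold change (shtRF minus control) of each of the 78 genes with its 95% interval, ordered by value, with MRPS genes in green, MRPL genes in purple and filled points for an adjusted p under 0.05. Values run from -0.60 (MRPL12) to 0.45 (MRPS18C), with 21 filled points below 0 and 9 above it.

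The precision was sufficient to bound most of the genes that were not called. Standard errors of the log2 fold changes ranged from 0.0531 to 0.194, with a median of 0.0707. For 41 of the 48 genes that were not called, the 95% interval lay within 1.25-fold in either direction (0.32 on the log2 scale). Of the 30 called genes, 9 differed by more than 1.25-fold. The 48 had log2 fold changes of -0.34 (MRPL23) to 0.15 (MRPL38), and 3 of them had an unadjusted p under 0.05.

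The genes were next divided by name and by place in the ribosome, and the counts are to be read against the 20.6% of all tested genes called higher and the 18.9% called lower. Of the 49 MRPL genes, 5 rose (10.2%) and 17 fell (34.7%), with a median log2 fold change of -0.11. Of the 29 MRPS genes, 4 rose and 4 fell (13.8% each), with a median of 0.04. MRPS30 and MRPS18A encode proteins that sit in the large subunit despite their names, and MRPS36 belongs to the 2-oxoglutarate dehydrogenase complex. With these placed by location, 5 rose (9.8%) and 17 fell (33.3%) among 51 large subunit genes, and 4 rose and 4 fell (15.4% each) among 26 small subunit genes. Among 30 large subunit genes with bacterial relatives, 2 rose (6.67%) and 13 fell (43.3%), with a median of -0.13. Among 21 large subunit genes listed as mitochondrial only, 3 rose (14.3%) and 4 fell (19.0%), with a median of 0.05. The small subunit gave 2 rises (12.5%) and 1 fall (6.25%) among 16 genes with bacterial relatives, with a median of 0.00. Among 10 genes listed as mitochondrial only it gave 2 rises (20%) and 3 falls (30%), with a median of 0.07. This division is approximate. The mitochondrial lists hold MRPS18A and MRPS18B, which descend from bacterial S18, and MRPL44, a called fall and a relative of ribonuclease III. The number of MRPL genes that fell was 10 without shtRF replicate 3, and the number that rose was 2 without control replicate 1 or shtRF replicate 1 and 3 without control replicate 2. Differences between these groups of genes were not tested.

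Summed over genes, small subunit transcripts amounted to 1583, 1611 and 1682 CPM in control libraries and to 1656, 1803 and 1791 CPM in shtRF libraries. Large subunit transcripts amounted to 1491, 1540 and 1591 CPM in control and to 1494, 1526 and 1452 CPM in shtRF libraries. The ratio of small to large subunit sums was 1.06, 1.05 and 1.06 in control and 1.11, 1.18 and 1.23 in shtRF libraries. Every shtRF ratio therefore lay above every control ratio, whereas the sums of either subunit overlapped between the groups. A few abundant genes carry the small subunit sum, with MRPS34, MRPS25 and MRPS18C, 3 of the called rises, among them. The median level per kilobase (RPKM) of small subunit genes was 13.01 to 14.7 in control and 12.3 to 12.8 in shtRF libraries. The groups did not overlap in these medians, which carry no normalisation factor and were lower in shtRF, unlike the sums. The median RPKM of large subunit genes was 9.92, 10.9 and 11.3 in control and 10.2, 9.81 and 9.26 in shtRF libraries. The ratio of small to large subunit medians was 1.31, 1.29 and 1.30 in control and 1.20, 1.31 and 1.33 in shtRF libraries, so by the median the groups overlapped. In these bulk samples, a change in RNA per cell and a change in the cells sampled cannot be told apart.

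The largest fall among the 78 genes was in MRPL12, which encodes the flexible stalk protein that contacts translation factors. It was measured at 17.2, 18.5 and 19.8 CPM in control and at 11.8, 13.3 and 11.4 CPM in shtRF libraries. All shtRF libraries lay below all control libraries. The log2 fold change was -0.60 (SE 0.0834, adjusted p = 4.65e-06). MRPL12 (chromosome 17, 81703357 to 81707526, plus strand, GRCh38) shared 68.2% of its exonic bases with RP13-1032I1.10 on the same strand, which had a log2 fold change of -0.57 (adjusted p = 2.6e-06), so reads of these genes could not be told apart. The partners of MRPL12 at the base of the stalk are MRPL10 and MRPL11. All 3 stalk genes were called lower (100%, against 18.9% of all tested genes). MRPL11, measured at 35.1, 33.9 and 40.4 CPM in control and 31.0, 28.5 and 29.96 CPM in shtRF libraries, had a log2 fold change of -0.29 (adjusted p = 0.00166, SE 0.0688), with no overlap between the groups. MRPL10 was measured at 15.6, 17.3 and 13.2 CPM in control and 13.8, 12.04 and 12.9 CPM in shtRF libraries. Its groups overlapped, since control replicate 3 lay below shtRF replicate 1. MRPL10 had a log2 fold change of -0.25 (adjusted p = 0.0377), and its call was lost without control replicate 1 (0.0792), control replicate 2 (0.218), shtRF replicate 2 (0.167) or shtRF replicate 3 (0.0974), and with limma-trend on log2(RPKM + 1) (0.0934).

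MRPL30 and MRPL16 encode large subunit proteins with bacterial relatives, the latter near the site of peptide bond formation. MRPL30 was measured at 16.6, 17.5 and 16.3 CPM in control and at 11.8, 11.6 and 10.7 CPM in shtRF libraries. The groups were well separated, with a log2 fold change of -0.56 (adjusted p = 6.42e-06, SE 0.0795). MRPL30 shared 19.5% of its exonic bases with 2 genes on its strand, of which RP11-38C17.1 had a log2 fold change of -0.52 and RP11-111H13.1 of -0.17. MRPL16, which overlapped no other exon by 10% or more, was measured at 40.9, 43.0 and 47.0 CPM in control and 31.7, 35.8 and 31.7 CPM in shtRF libraries. Again no shtRF library reached the lowest control library, and the log2 fold change was -0.40 (SE 0.0665, adjusted p = 4.4e-05). The calls of MRPL12, MRPL30, MRPL16 and MRPL11 were kept under every alternative tried for them.

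Further falls were seen in MRPL34 and in the mitochondrial proteins MRPL37 and MRPL57. MRPL34 was at 7.55, 8.63 and 7.13 CPM in control and 6.44, 5.85 and 5.40 CPM in shtRF libraries, a log2 fold change of -0.40 (adjusted p = 0.00598, SE 0.109). It shared 13.2% of its exonic bases with ABHD8 on the opposite strand, which had a log2 fold change of -0.25 and was not called. MRPL37 was at 17.9, 19.5 and 18.3 CPM in control and 15.6, 14.0 and 13.6 CPM in shtRF libraries, a log2 fold change of -0.36 (adjusted p = 6.92e-04, SE 0.078). MRPL57 was at 8.49, 8.61 and 10.4 CPM in control and 8.0, 6.54 and 7.26 CPM in shtRF libraries, a log2 fold change of -0.34 (adjusted p = 0.0155, SE 0.107). The groups did not overlap for any of these 3 genes. For MRPL57 the gap between the groups was narrow, and the call was lost without control replicate 3 (adjusted p = 0.104) or shtRF replicate 2 (0.0989).

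The 4 small subunit genes that fell were MRPS26, MRPS27, MRPS31 and MRPS15. The first 3 are particular to mitochondria, MRPS27 being an RNA-binding protein with pentatricopeptide repeats, and MRPS15 has a bacterial relative. MRPS26 was at 79.3, 76.1 and 81.0 CPM in control and 59.4, 64.6 and 66.5 CPM in shtRF libraries, a log2 fold change of -0.31 (adjusted p = 1.26e-04, SE 0.0566). MRPS27 was at 17.8, 19.5 and 19.9 CPM in control and 14.9, 15.3 and 16.3 CPM in shtRF libraries, a log2 fold change of -0.30 (adjusted p = 0.00303). MRPS15 and MRPS31, which fall outside the naming rule and are named because they complete the count, had log2 fold changes of -0.29 (adjusted p = 2.41e-04) and -0.28 (0.00375). The groups were apart for all 4 genes, and their calls held under every alternative tried for them.

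The remaining called falls were in 9 large subunit genes beside the 8 described above, with log2 fold changes of -0.27 to -0.15. Of these, MRPL9, MRPL44, MRPL17 and MRPL58 come under the naming rule, and the others are named here to complete the count. MRPL27 (-0.27, adjusted p = 0.00209), a protein of the peptidyl transfer site, and MRPL9 (-0.26, 7.55e-04) kept their calls under every alternative tried for them, although MRPL9 shared 38.5% of its exonic bases with other genes, among them OAZ3 (-0.26) on the opposite strand. The call of MRPL19 (-0.22, 0.00799) was lost only without control replicate 2 (0.0536). MRPL14 (-0.25, 0.02) lost its call without control replicate 2 (0.0572), shtRF replicate 1 (0.0652) or shtRF replicate 3 (0.102). MRPL17 (-0.20, 0.0169), beside the exit tunnel, lost it without control replicate 3 (0.117), shtRF replicate 2 (0.0752) or shtRF replicate 3 (0.0631). MRPL44 (-0.22, 0.032), a relative of ribonuclease III, and MRPL28 (-0.16, 0.0394) each lost their calls in 6 alternatives. For MRPL44 these were no filter beyond 1 count (0.0593) and the omission of any library but control replicate 2 (0.0514 to 0.091). For MRPL28 they were no filter beyond 1 count (0.0707) and the omission of any library but control replicate 1 (0.0631 to 0.138). MRPL3 (-0.17, 0.0439) lost its call without control replicate 3 (0.191), shtRF replicate 2 (0.0696) or shtRF replicate 3 (0.265), and narrowly with DESeq2 (0.0505) and limma-trend (0.0505). MRPL58 (-0.15, 0.0402), which hydrolyses peptidyl-tRNA on stalled ribosomes, lost it without control replicate 1 (0.0564), control replicate 2 (0.125), shtRF replicate 1 (0.0961) or shtRF replicate 3 (0.2).

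MRPS18C showed the largest rise. Human cells have 3 genes descended from the bacterial protein S18, and their products occupy different places in the mitoribosome. MRPS18C, which sits at the place of the bacterial protein in the small subunit, was measured at 105, 103 and 117 CPM in control and at 139, 157 and 149 CPM in shtRF libraries. All shtRF libraries lay above all control libraries, with a log2 fold change of 0.45 (adjusted p = 2.27e-06, SE 0.0595). The gene lies on chromosome 4 from 83455932 to 83469735, plus strand, and shared 40.2% of its exonic bases with FAM175A on the opposite strand, which had a log2 fold change of 0.38 (adjusted p = 1.77e-05). MRPS18B was at 39.2, 40.6 and 38.4 CPM in control and 41.4, 40.1 and 39.2 CPM in shtRF libraries, with a log2 fold change of 0.03 (95% interval -0.09 to 0.15). MRPS18A, 47.0% of whose exonic bases lie in RSPH9 exons, was at 35.1, 38.2 and 35.3 CPM and 35.1, 42.0 and 39.5 CPM, with a log2 fold change of 0.10 (95% interval -0.04 to 0.24). The groups overlapped for both of these paralogues.

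MRPS25 and MRPS34, which are mitochondrial proteins of the small subunit, also rose. MRPS25 was at 191, 212 and 187 CPM in control and 216, 268 and 268 CPM in shtRF libraries, a log2 fold change of 0.35 (adjusted p = 4.35e-04, SE 0.0713). The groups were apart, but shtRF replicate 1 lay close to control replicate 2. MRPS25 shared 22.2% of its exonic bases with NR2C2 on the opposite strand, which had a log2 fold change of 0.21 (adjusted p = 0.0101). MRPS34 was at 197, 205 and 225 CPM in control and 233, 266 and 264 CPM in shtRF libraries, with the groups apart and with no exon shared. The log2 fold change of MRPS34 was 0.28 (SE 0.0621, adjusted p = 8.78e-04).

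In the large subunit, rises were called for MRPL55, MRPL49, MRPL46, MRPL40 and MRPL33. MRPL55, MRPL46 and MRPL40 belong to the central protuberance, the part of the large subunit that faces the head of the small subunit. Of the 8 genes listed here for it, which may not be all, 3 rose (37.5%, against 20.6% of all tested genes). One of them (MRPL27) fell (12.5%, against 18.9%), and the median log2 fold change was 0.14. MRPL55 was at 7.72, 8.74 and 8.10 CPM in control and 10.2, 10.9 and 9.84 CPM in shtRF libraries, a log2 fold change of 0.33 (adjusted p = 0.00594, SE 0.0919). MRPL49 was at 51.0, 50.2 and 52.5 CPM in control and 57.9, 63.4 and 60.1 CPM in shtRF libraries, a log2 fold change of 0.24 (adjusted p = 0.00159, SE 0.0558). It shared 12.2% of its exonic bases with SYVN1 and FAU, of which FAU had a log2 fold change of -0.32. For MRPL55 and MRPL49 the groups were apart and the calls held under every alternative tried for them.

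The other 4 rises rested on smaller differences. MRPL46 was at 48.8, 45.9 and 52.9 CPM in control and 59.2, 54.0 and 54.5 CPM in shtRF libraries, a log2 fold change of 0.18 (adjusted p = 0.0212). Its call was lost with upper quartile scaling (0.0706), with limma-trend (0.215), and without control replicate 1 (0.0709), control replicate 2 (0.155) or shtRF replicate 1 (0.146). MRPL40 was at 39.2, 41.8 and 42.3 CPM and 45.9, 43.1 and 48.7 CPM, a log2 fold change of 0.16 (adjusted p = 0.0408), and was called in 6 of 16 alternatives. The omissions that ended the call of MRPL40 were of control replicate 1 (0.18), control replicate 2 (0.0788), shtRF replicate 1 (0.105) and shtRF replicate 3 (0.217). The groups of both genes were apart by a narrow margin. MRPL33 (0.21, 0.0284), which shared 21.1% of its exonic bases with BRE, and MRPS9 (0.16, 0.0324), named outside the rule, had overlapping groups. MRPL33 lost its call with limma-trend (0.205), upper quartile scaling (0.0708), and without control replicate 1 (0.0957), control replicate 3 (0.0591), shtRF replicate 1 (0.157) or shtRF replicate 2 (0.148). MRPS9 lost its call with limma-trend (0.114), no filter beyond 1 count (0.0583), upper quartile scaling (0.105), and without control replicate 1 (0.139), control replicate 2 (0.105), shtRF replicate 2 (0.143) or shtRF replicate 3 (0.142).

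**Figure D2:**
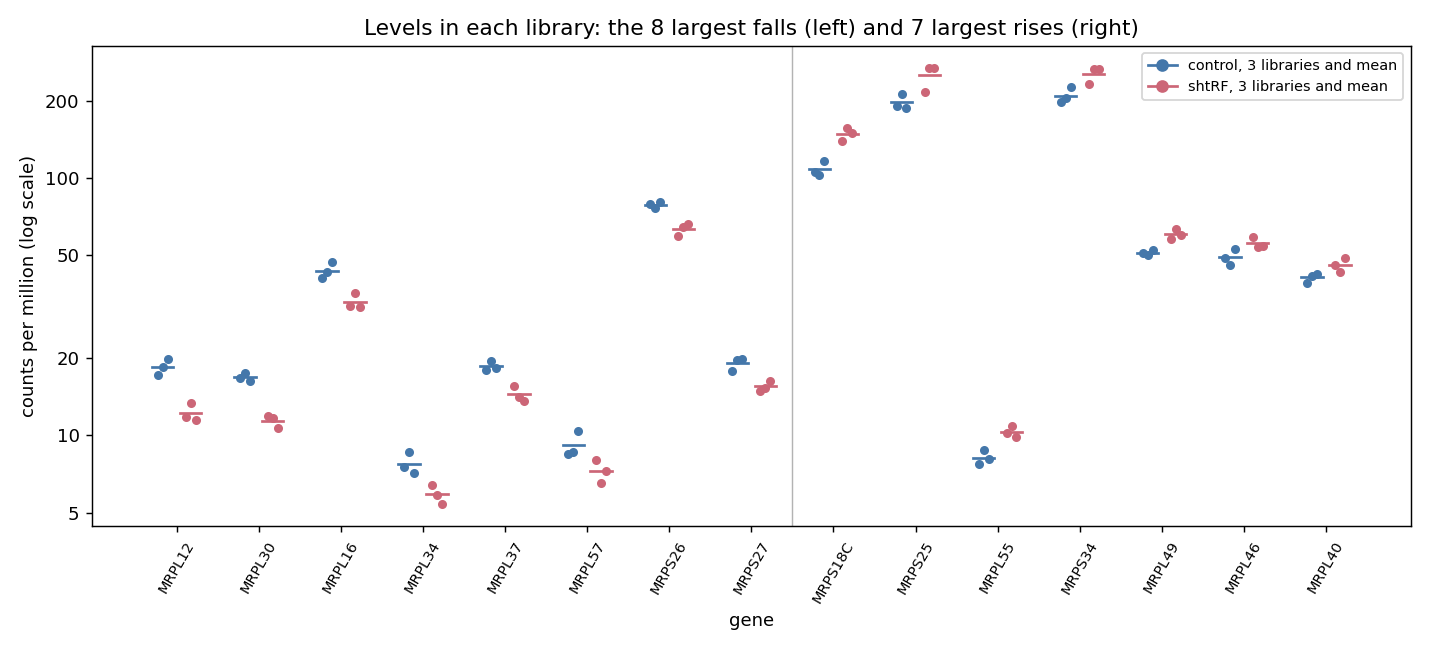
CPM (log scale) of the 8 genes with the largest falls and the 7 with the largest rises among called genes whose groups did not overlap, with a point for each library and a line for the mean of 3, control in blue and shtRF in red. The groups are widest apart for MRPL30 among the falls and for MRPS18C among the rises, and closest for MRPS25, MRPL46 and MRPL40.

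The new peptide leaves the large subunit through the exit tunnel. Of its 6 genes, 1 (MRPL17) fell (16.7%, against 18.9% of all tested genes) and none rose by the test of edgeR (against 20.6%), with a median log2 fold change of -0.11. MRPL23 was at 5.95, 4.36 and 5.11 CPM in control and 3.96, 4.67 and 3.55 CPM in shtRF libraries, and its groups overlapped. Its log2 fold change was -0.34 (SE 0.139, adjusted p = 0.0603), with a 95% interval of -0.62 to -0.05. MRPL23 passed the threshold under 4 alternatives, namely upper quartile scaling (0.0385), no filter beyond 1 count (0.0467), and without control replicate 2 (0.0209) or shtRF replicate 2 (0.0305). MRPL45, which anchors the ribosome to the inner membrane, had a log2 fold change of -0.13 (adjusted p = 0.124). MRPL45 was called lower with limma-trend (0.0409), with upper quartile scaling (0.0488) and without control replicate 1 (0.039). MRPL22 (-0.09), MRPL47 (-0.05) and MRPL24 (0.06) were not called.

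Exons shared with another gene matter for 25 of the 78 genes, for which other genes' exons, on either strand, covered 10% or more of the exonic bases. Among these 25, 4 rose (16%) and 5 fell (20%), and among the other 53, 5 rose (9.43%) and 16 fell (30.2%). Of all tested genes, 20.6% were called higher and 18.9% lower. The shared genes that were not called included MRPS17 (-0.24, adjusted p = 0.0549), 27.0% of whose exonic bases lay in GBAS (-0.73) and RP11-15K19.2 (-0.32) on its strand. MRPS17 was called lower with upper quartile scaling (0.0285), with at least 10 counts in every library (0.0416), with halved counts (0.0419), and without control replicate 1 (0.012) or shtRF replicate 1 (0.0478). MRPS28 shared 35.8% with RP11-26J3.4, which was far more abundant at 389 CPM in control and had a log2 fold change of 0.37, while MRPS28 itself was at 10.2 CPM with -0.10. MRPS24 shared 23.2% with the readthrough gene URGCP-MRPS24 (0.36), and had a log2 fold change of 0.04.

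Levels per length spanned a wide range although most of the products are present in equal number in the ribosome. The control mean RPKM of the 78 genes ran from 1.26 to 194, a ratio of 154, with a median of 10.96. MRPS34 was highest at a control mean of 194 RPKM, followed by MRPL58 at 111 RPKM. MRPS35 had 63.5 RPKM in control and ranked next over all 6 libraries. The lowest were MRPL50 at 1.26, MRPL42 at 1.41 and MRPS24 at 1.47 RPKM in control. RPKM divides by the whole annotated exon length, so a gene with long annotated exons that these cells do not use is given a low value. MRPS35 (log2 fold change 0.07), MRPL50 (0.05) and MRPL42 (-0.03) did not pass the test.

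**Figure D3:**
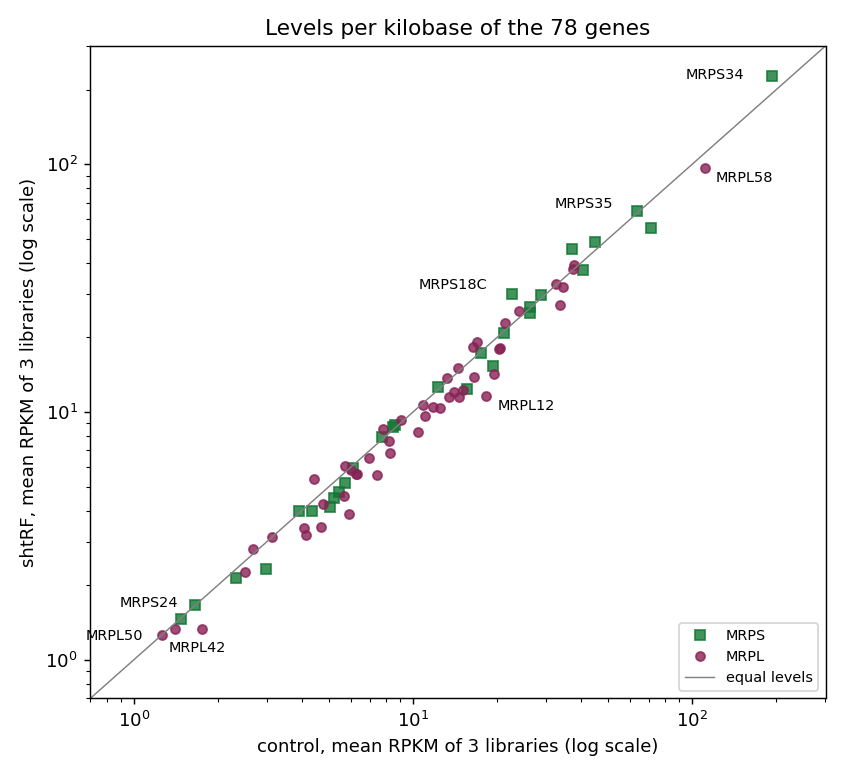
Mean RPKM of 3 shtRF libraries against mean RPKM of 3 control libraries for the 78 genes, both axes on a log scale, with MRPS genes as green squares, MRPL genes as purple circles and a line at equal levels. Levels run from 1.26 RPKM (MRPL50) to 194 RPKM (MRPS34) in control, and the points lie close to the line, with MRPL12 below it and MRPS18C above it.

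The 5 mitoribosomal proteins with other names were also examined. Of their genes, 1 rose (20%) and 2 fell (40%), against 20.6% and 18.9% of all tested genes. GADD45GIP1, a large subunit protein, rose by 0.29 on the log2 scale (SE 0.058, adjusted p = 3.4e-04). PTCD3 (-0.30, 1.15e-04) and DAP3 (-0.22, 0.00163), both in the small subunit, fell, and AURKAIP1 (-0.08) and CHCHD1 (-0.13) were not called. Of 28 assembly factors, 3 rose (10.7%) and 4 fell (14.3%), against 20.6% and 18.9% of all tested genes, with a median of 0.06. Those that fell included the GTPase NOA1 (-0.53, adjusted p = 3.03e-04), the matrix protein C1QBP (-0.46, 4.59e-07) and the pseudouridine synthase RPUSD4 (-0.37, 9.06e-04), and METTL15 (0.42, 7.8e-05), a methyltransferase of the small subunit rRNA, was among those that rose. NOA1 shared 13.6% of its exonic bases with POLR2B.

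Of 20 mitochondrial translation factors, 2 rose (10%) and 5 fell (25%), against 20.6% and 18.9% of all tested genes. Their median log2 fold change was 0.01. LRPPRC, which stabilises mitochondrial mRNAs, fell from 130 ± 2.8 to 88.9 ± 0.864 CPM (mean and SD, n = 3). On the log2 scale this was a difference of -0.55 (SE 0.0509, adjusted p = 1.59e-08). OXA1L (-0.38, 0.00161), the insertase that receives the new chains, and the recycling factor MRRF (-0.38, 8.07e-05) fell as well, while C12orf65 (0.32, 1.89e-04), a peptide release factor, rose. Of 6 factors that transcribe mitochondrial DNA, 3 rose (50%, against 20.6%), namely MTERF2 (0.39, 2.3e-05), TEFM (0.35, 0.00443) and TFAM (0.21, 0.00523).

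The templates of the mitoribosome are the 13 mRNAs of mitochondrial DNA, and its protein products were not measured. Of the 13, 5 rose (38.5%) and 2 fell (15.4%), against 20.6% and 18.9% of all tested genes. Their median log2 fold change was 0.13. MT-ND1 (0.40, adjusted p = 9.25e-05), MT-ND6 (0.34) and MT-ND5 (0.29) of the first respiratory complex rose, and MT-CYB (-0.39, 5.53e-05) of the third complex fell. The rRNA of the large subunit, MT-RNR2, was at 0.02 (adjusted p = 0.876). That of the small subunit, MT-RNR1, had a log2 fold change of -0.62 (adjusted p = 6.11e-06, SE 0.0873), with 140 ± 20.8 CPM in control and 91.4 ± 11.5 CPM in shtRF libraries (mean and SD, n = 3). Libraries made from mRNA capture rRNA incompletely, so neither value measures rRNA content.

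The genes of the cytosolic ribosome behaved otherwise in the same libraries. Of 81 tested cytosolic ribosomal protein genes, none rose and 77 fell (95.1%) by the test of edgeR, with a median log2 fold change of -0.76. Of the 4 that were not called, 1 had an unadjusted p under 0.05. Their summed level was 19646 to 20125 CPM in control and 11815 to 12561 CPM in shtRF libraries, whereas the 78 mitochondrial genes summed to 3076 to 3275 CPM in control and 3154 to 3331 CPM in shtRF libraries. The sums of the cytosolic genes did not overlap between the groups, and those of the mitochondrial genes did.

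**Figure D4:**
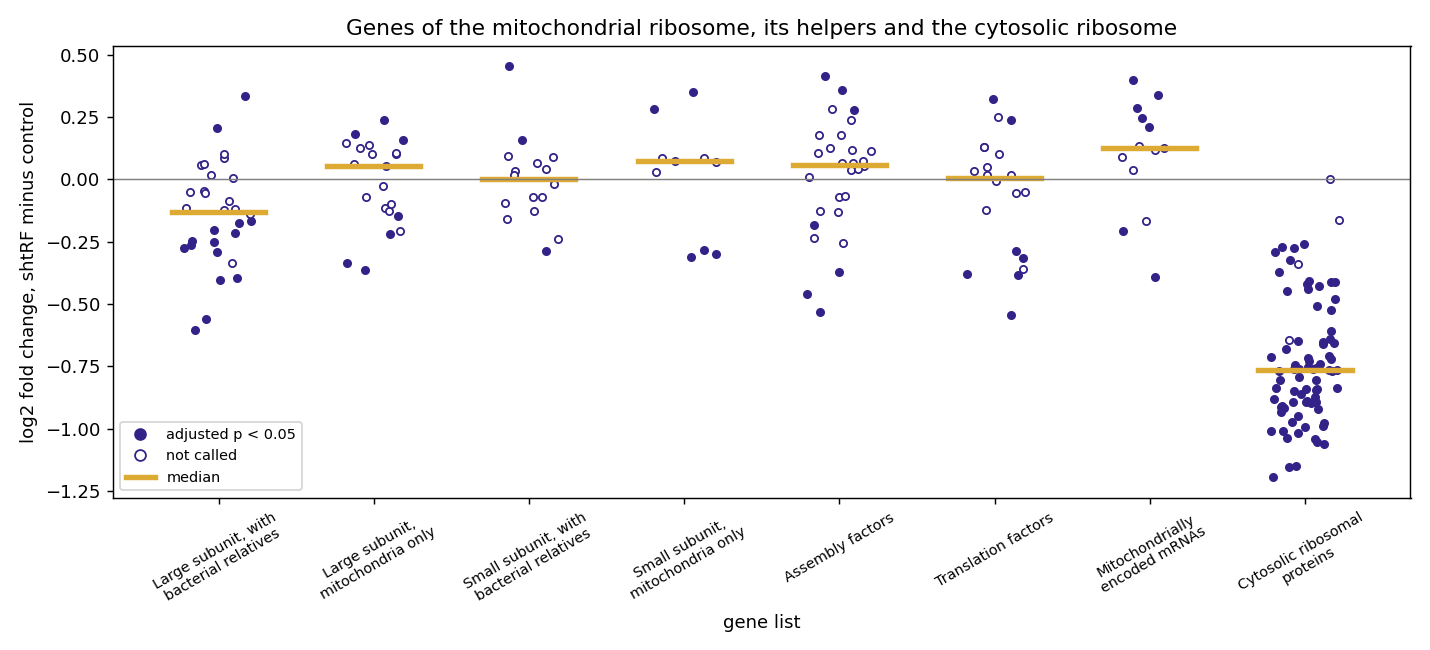
Log2 fold change (shtRF minus control) of each tested gene in 8 gene lists, filled where the adjusted p was under 0.05, with a bar at the median. The cytosolic ribosomal protein genes are centred on -0.76, and the large subunit genes with bacterial relatives on -0.13, while the other lists have medians between 0.00 and 0.13.

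Transcription of these genes is known to depend on nuclear factors that serve many mitochondrial genes, among them NRF1, the GA-binding protein (GABPA with GABPB1), YY1, MYC and the coactivators of the PPARGC1 family. Of 9 such regulators, 1 rose (11.1%) and 4 fell (44.4%), against 20.6% and 18.9% of all tested genes. MYC fell from 21.0 ± 0.667 to 7.55 ± 0.325 CPM (mean and SD, n = 3). On the log2 scale this was a difference of -1.48 (SE 0.0799, adjusted p = 2.51e-12). PPARGC1A (-0.48, 0.0396), GABPB1 (-0.19, 0.0264) and YY1 (-0.15, 0.0414) also fell, and the nuclear receptor ESRRA (0.32, 4.39e-04) rose. The level of PPARGC1A was low, at 3.34, 2.13 and 2.39 CPM in control and 1.82, 1.91 and 1.87 CPM in shtRF libraries. Whether the calls of these regulators held under the alternatives is not given here. NRF1 (-0.14, adjusted p = 0.287) and GABPA (0.13, 0.0585) did not pass the test.

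Promoter sequences from RefSeq (GRCh38.p14), 250 bases before to 50 bases after each start, were found for 69 of the 78 genes. The promoters of 5 genes are shown because they carry the letters searched and belong to genes among the largest falls (MRPL16, MRPL30) and rises (MRPS34, MRPS18C, MRPL46). Capitals mark CCGGAAG of GABPA, the NRF1 motif (GCGCA, any base, GCGC) or AAGATGG of YY1 on either strand, and each runs from 250 bases before to 30 bases after the start, on the strand of the gene. MRPL16 spans chr11:59810749-59811028 (minus), MRPL30 chr2:99180934-99181213 (plus), MRPS34 chr16:1773105-1773384 (minus), MRPS18C chr4:83455808-83456087 (plus) and MRPL46 chr15:88467359-88467638 (minus).
MRPL16: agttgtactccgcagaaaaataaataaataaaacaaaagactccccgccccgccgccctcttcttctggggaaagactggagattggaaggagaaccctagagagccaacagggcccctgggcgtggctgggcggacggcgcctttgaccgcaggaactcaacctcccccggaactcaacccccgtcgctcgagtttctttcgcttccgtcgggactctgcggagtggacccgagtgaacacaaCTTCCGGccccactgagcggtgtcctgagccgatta
MRPL30: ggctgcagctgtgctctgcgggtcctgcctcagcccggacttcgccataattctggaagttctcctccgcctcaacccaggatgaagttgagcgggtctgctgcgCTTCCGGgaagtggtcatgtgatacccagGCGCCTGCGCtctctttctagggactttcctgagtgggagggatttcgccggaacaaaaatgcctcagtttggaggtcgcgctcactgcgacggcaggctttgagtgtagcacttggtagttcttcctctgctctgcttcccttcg
MRPS34: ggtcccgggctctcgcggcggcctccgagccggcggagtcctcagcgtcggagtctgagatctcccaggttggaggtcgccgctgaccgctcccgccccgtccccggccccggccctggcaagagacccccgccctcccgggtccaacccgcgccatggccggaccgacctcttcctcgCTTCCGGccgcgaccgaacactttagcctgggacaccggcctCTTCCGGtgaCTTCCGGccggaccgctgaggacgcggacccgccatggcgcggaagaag
MRPS18C: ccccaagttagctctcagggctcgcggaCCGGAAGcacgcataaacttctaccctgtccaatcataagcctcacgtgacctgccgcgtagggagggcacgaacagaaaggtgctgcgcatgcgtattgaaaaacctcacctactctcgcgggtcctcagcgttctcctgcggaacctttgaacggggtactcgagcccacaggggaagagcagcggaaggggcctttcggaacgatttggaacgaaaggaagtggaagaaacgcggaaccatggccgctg
MRPL46: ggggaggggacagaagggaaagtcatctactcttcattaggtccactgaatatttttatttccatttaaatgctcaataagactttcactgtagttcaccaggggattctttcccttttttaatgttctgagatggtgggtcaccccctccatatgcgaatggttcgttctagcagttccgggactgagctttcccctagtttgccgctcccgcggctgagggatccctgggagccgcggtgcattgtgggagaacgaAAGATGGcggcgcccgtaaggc
GABPA letters stand once in MRPL16, close to the start, once in MRPL30 beside NRF1 letters, and 3 times in MRPS34. The letters of YY1 in MRPL46 begin 8 bases after the start.

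Across the 69 promoters, CCGGAAG was present in 43.5%, against 12.2% of all genes in the table. It was present in 8 of 20 genes that fell, 4 of 9 that rose and 18 of 40 that were not called. The NRF1 motif was present in 13% against 6.98% of all genes, in 5 of 20, 1 of 9 and 3 of 40 genes. AAGATGG was present in 34.8% against 7.11%, in 2 of 20, 2 of 9 and 20 of 40 genes. The letters of MYC, CACGTG, were present in 13% against 8.77%, in 2 of 20, 2 of 9 and 5 of 40 genes. GGGCGG, read by SP1, was present in 60.9% against 48.3%, and TATAAA in 4.35% against 14.0%. Matches on either strand were counted, and some letters of different motifs can overlap. These shares describe letters in a window, and whether a factor bound there was not measured.

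Many of these genes start back to back with a gene on the opposite strand. Within 1000 bases, 20 of the 78 (25.6%) had such a neighbour that was tested, against 11.6% of all tested genes. The mitochondrial gene was called in 8 of these 20 cases and the neighbour in 6, against 39.5% of all tested genes called in either direction. Both were called in 1 case, MRPS34 (0.28) with the endonuclease subunit EME2 (0.46), whose starts lie 52 bases apart. MRPL30 (-0.56) starts 21 bases from MITD1, which was at 54.4 CPM in control and 53.1 CPM in shtRF libraries, with a log2 fold change of -0.03 (SE 0.0613). MRPS18C (0.45) starts 76 bases from the helicase gene HELQ, which had a log2 fold change of 0.01 (SE 0.102). MRPL46 (0.18) and MRPS11 (0.09, not called) start 34 bases from each other, and the shtRF libraries of both genes lay above all control libraries. The difference in log2 fold change between neighbours was not tested.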

How the data were processed

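The members and gene lists were chosen with earlier results of these data known. RNA of stably transduced MDA-MB-453 cells was sequenced as stranded, paired-end mRNA libraries, 3 in each group. The study calls the samples biological replicates, and whether each came from its own transduction is not stated, so p-values measure the spread between these samples. The authors deposited whole-number read counts per gene, with gene positions on GRCh38. The submitters' processing notes name Trimmomatic 0.36, featureCounts of Subread 1.5.1 and edgeR 3.12.1, and the aligner is not given in the sources used here. RPKM (reads per kilobase of exon and per 1000000 counted reads) was also deposited. For 4991 genes with complete values, 22 of them mitochondrial ribosomal protein genes, 100% of these equalled count divided by length and library total (tolerance 1e-06 RPKM), and RPKM of all genes was recomputed in that way.

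Even numbers made up 74.2% to 77.1% of the counts from 1 to 4, and 49.7% to 50.7% of those from 1000 up, so a count may stand for fewer fragments, and reads of genes that share exons may be credited to each of them. Overlap was the share of a gene's exonic bases that lies in exons of other genes on either strand.

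Counts were tested with edgeR 4.0.16 in R 4.3.3: filterByExpr (minimum count 10), TMM factors, a quasi-likelihood fit and test (glmQLFit, glmQLFTest) on group alone, and Benjamini-Hochberg adjustment over 19628 genes at 0.05. The common dispersion was 0.00572. Standard errors came from the estimate and its F statistic. Errors of CPM are standard deviations over 3 libraries. In parentheses after a gene, the first value is its log2 fold change and the second its adjusted p, and p-values after an alternative are adjusted as well. The tests were checked on simulated data. The first limit set for the share of 2-fold changes recovered was missed, with the missed changes at low counts, and the limit was then replaced by one for genes with a mean count of 100 or more, which was met. Changes of the smaller size seen in most of these genes were recovered only in part in that check. Results for 1 further gene list are not reported here.

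Genes were named by rule: among called genes whose groups did not overlap, the 8 largest rises (7 met this) and 8 largest falls; the 3 highest and 3 lowest by mean RPKM; the 3 paralogues of MRPS18; stalk and exit tunnel genes; genes with 10% or more overlap; and up to 4 called genes of each other list. The alternatives tried were DESeq2 1.42.0, scaling by RLE or by the upper quartile, no filter beyond 1 count or one of 10 counts in every library, the exact test of edgeR, limma-trend (limma 3.58.1) on log2(RPKM + 1), halved counts, genes with under 10% overlap, a replicate block, and omission of each library. Same-numbered libraries deviated together with correlations of 0.0592, 0.0178 and 0.0174, which does not pair them.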

Additional observations from a re-analysis of the deposited data

How the results depend on the processing

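Of 9 mitochondrial ribosomal protein genes called higher, 5 were called higher with limma-trend, with upper quartile scaling and among genes with under 10% exon overlap, and the number lay between 5 and 10 when each library was left out (5 without control replicate 1). The number lower was 21 and lay between 14 and 22 with a library left out (14 without shtRF replicate 3), and was 25 with upper quartile scaling. For MRPL genes, 5 higher became 3 among genes with under 10% overlap, 2 with limma-trend, 2 with upper quartile scaling and 2 to 6 with a library left out, and 17 lower became 10 to 17 with a library left out. For MRPS genes, 4 higher became 2 among genes with under 10% overlap and 3 to 4 with a library left out, and 4 lower became 4 to 5. The median log2 fold change was between -0.090 and -0.023 with a library left out. Over all genes, 7750 were called, and 6375 to 7496 in the fits with a library left out. In a fit with the replicate number as a block, 9 of the 78 genes were higher and 21 lower, and all 30 of these had been called without the block. The fit among genes with under 10% exon overlap leaves out all other genes. The 5 higher and 16 lower genes that remained in it all kept their calls, so its smaller counts reflect the genes left out. The causes of the other shifts were not tested. Of 30 called genes, 17 kept their call in every alternative tried for them. Over 55 named genes and 855 values, 763 kept their direction and their side of the threshold, 63 lost a call, 17 gained it and 12 changed sign.

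The 12 changes of sign were in genes that were not called, all with small log2 fold changes. With limma-trend they were MRPS14 (-0.0114), MRPS18B (-0.0217) and MRPS24 (-0.0111), and with upper quartile scaling MRPS18B (-0.00554) and MRPS24 (-7.52e-04). With a library left out, the range was -0.0153 to 0.138 for MRPL24 (lowest without control replicate 2), -0.102 to 0.0253 for MRPL42 (highest without control replicate 2), -0.0466 to 0.118 for MRPL50 (lowest without control replicate 1) and -0.012 to 0.083 for MRPS14 (lowest without shtRF replicate 3). It was -0.169 to 0.0162 for MRPS2 (highest without shtRF replicate 3) and -0.0607 to 0.0842 for MRPS24, which was below 0 without shtRF replicate 3 and, at -0.00143, without control replicate 2. Half-widths of the 95% intervals, 0.11 to 0.40 on the log2 scale, limit what could be detected in the least abundant genes.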

Other observations

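The table also holds 20 genes named after mitochondrial ribosomal proteins that are not among the 78, of which 19 are pseudogenes and 1 is the antisense gene MRPL23-AS1. Only 3 of them had enough counts to be tested, and none was called by the test of edgeR or had an unadjusted p under 0.05. MRPS31P4 held 1006 to 1324 counts per library, with a log2 fold change of 0.01 (SE 0.0872), and MRPS31P5 held 768 to 950 counts, with 0.05 (SE 0.0817). Their parent MRPS31 (-0.28) held 1674 to 2820 counts. Near-identical copies can share reads, so the division of counts between MRPS31 and these copies is uncertain. MRPS18AP1 held 9 to 25 counts. The other 17 had at most 9 counts in any library.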
